A study of Homo sapiens with 6 samples.

Results

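The 10 genes described here encode the FOS proteins (FOS, FOSB, FOSL1, FOSL2), the JUN proteins (JUN, JUNB, JUND) and 3 zinc finger factors of the EGR family (EGR1, EGR2, EGR3). They were chosen by symbol from the 46427 genes of the count table as a list of family members, and each of the 10 symbols was found. FOS and JUN proteins pair through leucine zippers to form AP-1, a transcription factor that binds a short palindromic element in the control regions of genes for growth, invasion and matrix breakdown. EGR proteins bind GC-rich elements through zinc fingers. Most of these genes are immediate early genes: serum or growth factors switch them on within minutes, through ERK, JNK and p38 kinases acting on factors already present, without new protein synthesis.

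RNA was sequenced from Hs578T, a triple-negative breast cancer cell line of mesenchymal type, carrying either a control shRNA (shCTRL) or shRNA #2 against CCN3 (shCCN3), with 3 libraries in each group. CCN3 is a secreted matricellular protein of the CCN family, and the comparison asked how its knockdown changed the transcriptome. Both groups carried a retroviral shRNA vector, were selected with puromycin and were grown in DMEM containing 10% serum, so the levels are those of cells growing in serum and not of cells stimulated for a set time. A single shRNA sequence was sequenced, and an effect of that sequence cannot be told apart from an effect of lower CCN3. The paper describes stable lines and does not say whether the 3 libraries of a group came from the same line. Any other difference between the selected lines therefore cannot be told apart from the knockdown either.

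The libraries held between 56159110 and 68393177 counts. Levels are given as CPM, the counts of a gene divided by the TMM-scaled library total and put on a common scale. At these depths, 3 counts equal 0.0435 to 0.0540 CPM. CCN3 was 101 ± 2.43 CPM (SD, n = 3) in shCTRL and 47.0 ± 0.469 CPM in shCCN3 (log2 -1.10, adjusted p = 1.34e-06). All 7 mesenchymal markers were expressed and their summed level was 13560 to 14424 CPM per library, while luminal markers summed to 7.05 to 8.94 CPM. Endothelial markers summed to 3.11 to 4.46 CPM, nearly all of it PECAM1, with CDH5 at 0 in every library. Immune markers summed to 0.422 to 0.828 CPM, with CD14 and PTPRC detected and CD3E at 0. Of 17419 genes tested, 33.4% were called at an adjusted p under 0.05 (16.2% higher and 17.3% lower in shCCN3), and 46.3% had groups that did not overlap, so a call on a single gene was common here.

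Promoters of 3 of the genes that changed are shown because they carry the elements through which these families are known to be controlled. Each is the 250 bases before the first start listed for the gene in RefSeq (GRCh38.p14), 5′ to 3′ on the gene's own strand, with matches to searched motifs in capitals.
EGR1 promoter, chr5:138465229-138465478, plus strand: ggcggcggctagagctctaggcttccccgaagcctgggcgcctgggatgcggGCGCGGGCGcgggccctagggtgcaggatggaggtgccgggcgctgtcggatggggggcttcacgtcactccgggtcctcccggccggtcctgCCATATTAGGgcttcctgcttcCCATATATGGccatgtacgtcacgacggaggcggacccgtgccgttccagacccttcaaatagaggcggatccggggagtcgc
JUN promoter, chr1:58784048-58784297, minus strand: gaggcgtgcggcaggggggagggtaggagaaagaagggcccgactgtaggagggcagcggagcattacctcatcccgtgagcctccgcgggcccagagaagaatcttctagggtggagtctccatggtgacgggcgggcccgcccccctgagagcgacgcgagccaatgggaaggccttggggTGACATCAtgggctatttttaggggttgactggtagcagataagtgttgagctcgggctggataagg
JUND promoter, chr19:18281623-18281872, minus strand: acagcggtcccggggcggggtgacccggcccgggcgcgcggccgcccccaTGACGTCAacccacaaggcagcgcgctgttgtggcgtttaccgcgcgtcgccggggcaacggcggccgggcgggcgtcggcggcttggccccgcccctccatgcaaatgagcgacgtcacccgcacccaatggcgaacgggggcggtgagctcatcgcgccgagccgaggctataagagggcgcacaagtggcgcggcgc
The EGR1 promoter held 2 CArG boxes, the element bound by serum response factor (SRF), at -105 to -96 and at -83 to -74 from the start, and an EGR site (GCGNGGGCG) at -198 to -190. JUN held a cyclic AMP response element (CRE, TGACNTCA), which JUN-ATF2 and CREB proteins bind, at -67 to -60. JUND held a CRE at -200 to -193. Both strands were searched in the 8 of 10 genes with an entry. Bases outside these 250 were not searched, so a gene without a match here may hold one elsewhere. FOSL1 and EGR3 had no entry and were not searched. The AP-1 element TRE, searched only as TGANTCA, matched in 0 of the 8. Variant forms of it were not searched as a TRE. Among 27305 promoters of the same length, 1.14% held a CArG box, 7.09% a CRE, 8.25% an EGR site and 6.6% a TRE. A match is a run of letters and not a measured binding site.

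Across the 10 genes, 5 passed the test: EGR1 and JUND rose, and FOSL1, JUN and EGR3 fell. That share lies above the 33.4% of all genes called, but it rests on 10 genes. Where at least 10 counts were required in every library, which left out EGR3, 4 were called. The median log2 fold change of the 10 was -0.10, against 0.01 over all genes tested, so the families did not move together in 1 direction. FOS, FOSB, FOSL2, JUNB and EGR2 did not pass. All 10 passed the filter on low counts, EGR3 through the shCTRL libraries alone, since none of the shCCN3 libraries reached the level of 0.152 CPM that the filter asked for in 3 libraries. With 3 libraries against 3, an exact permutation test of a single gene cannot give a p below 0.1.

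**Figure D1:**
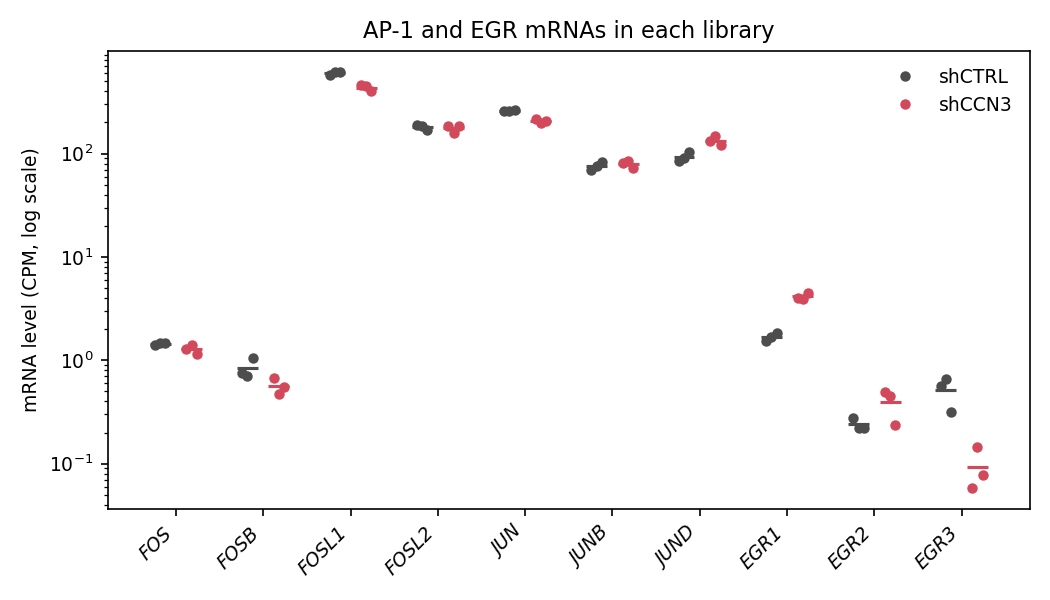
Level of each gene in CPM (log scale) in the 3 shCTRL and 3 shCCN3 libraries, with points for libraries and bars for group means. EGR1 and JUND sit higher and FOSL1, JUN and EGR3 lower in shCCN3, with no overlap, and the 10 genes span from 0.06 to 621 CPM.

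The plot of levels by library shows an expressed set and a nearly silent one. FOSL1, FOSL2, JUN, JUNB and JUND each averaged above 50 CPM, whereas FOS, FOSB, EGR1, EGR2 and EGR3 each averaged below 5 CPM. The second set comprises genes whose mRNA is known to be short-lived and to rise only briefly after a stimulus. Between 4 and 287 counts per library stood behind their values.

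EGR1 encodes a zinc finger activator that is induced by growth factors, injury and mechanical strain. It was at 1.53, 1.69 and 1.83 CPM in shCTRL and at 4.0, 3.94 and 4.49 CPM in shCCN3. Every shCCN3 library lay more than 2 CPM above the highest shCTRL library. The mean went from 1.68 ± 0.152 to 4.14 ± 0.299 CPM (SD, n = 3), a rise of 2.46-fold (log2 1.30, SE 0.14, adjusted p = 0.000108). The counts behind these values were 105, 106 and 123 in shCTRL and 276, 219 and 287 in shCCN3. EGR1 lies on chromosome 5 at 138465479 to 138469303, and the median log2 change of its 24 nearest tested genes was 0.09.

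EGR3, a paralogue known in muscle spindle, lymphocyte and neuronal development, went the other way. It had 39, 41 and 21 counts in shCTRL and 4, 8 and 5 counts in shCCN3. All shCCN3 libraries lay below all shCTRL libraries, and shCTRL replicate 3 was the lowest of its group. Its level fell from 0.511 ± 0.177 to 0.0934 ± 0.0449 CPM (log2 -2.46, SE 0.47, 95% interval -3.52 to -1.40, adjusted p = 0.00327). The shCCN3 values were close to the level of 3 counts, so the size of this fall is poorly fixed. EGR3 lies on chromosome 8 at 22687659 to 22693480. The median log2 change of its 24 nearest tested genes was -0.31, with 9 called lower and 1 called higher, against a median of 0.11 over 612 tested genes of that chromosome. None of those 24 fell as far as EGR3, and the part of this neighbourhood in the EGR3 result was not tested.

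EGR2, a regulator of myelination and of T cell tolerance, had 19, 14 and 15 counts in shCTRL and 34, 25 and 15 counts in shCCN3. The shCCN3 replicate 3 library overlapped the controls. Its log2 fold change was 0.70 with a 95% interval from -0.15 to 1.54 (adjusted p = 0.191), which leaves room for a fall as well as for a rise of the size seen in EGR1. EGR4, the remaining member of the EGR family, had 0 counts in every library. Per kilobase of exon, EGR1 made up 69.3 to 80.5% of EGR1 to EGR3 mRNA in shCTRL and 87.7 to 93.9% in shCCN3, while the total of the 3 genes went from 0.703 to 0.755 CPM per kb up to 1.43 to 1.52 CPM per kb.

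FOSL1 (FRA-1) is the FOS family protein best known for its part in invasive, mesenchymal breast cancer cells, and it had the highest level per kilobase of the 10 genes. It was at 581, 621 and 615 CPM in shCTRL and at 458, 446 and 403 CPM in shCCN3. No library of one group reached the range of the other. The fall was from 606 ± 21.7 to 436 ± 28.7 CPM (log2 -0.48, SE 0.06, adjusted p = 0.000499), and FOSL1 in shCCN3 stayed far above any other FOS gene. FOSL1 lies on chromosome 11 at 65892049 to 65900545, where the median log2 change of its 24 nearest tested genes was 0.03 and none fell as far.

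FOSL2 (FRA-2), its closest relative and a factor in bone and fibrosis, gave 188, 183 and 167 CPM in shCTRL and 185, 159 and 183 CPM in shCCN3. The groups overlapped throughout. Its log2 fold change was -0.03 (95% interval -0.20 to 0.14, adjusted p = 0.813), an interval that excludes a fall of the size measured for FOSL1. An antisense gene, FOSL2-AS1, overlaps FOSL2 and had only 6 to 34 counts.

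FOS, the founding member and the one most quickly induced by serum, was at 1.41, 1.46 and 1.48 CPM in shCTRL and at 1.29, 1.42 and 1.16 CPM in shCCN3. The CPM values overlapped only in that shCCN3 replicate 2 lay just above shCTRL replicate 1, and the log2 fold change of -0.17 had a 95% interval from -0.56 to 0.22 (adjusted p = 0.49). FOSB, whose splice form deltaFosB is known from long-lasting neuronal adaptation, was at 0.76, 0.70 and 1.06 CPM in shCTRL and at 0.68, 0.47 and 0.55 CPM in shCCN3. The FOSB groups just failed to overlap, but the gene did not pass the test (log2 -0.56, 95% interval -1.16 to 0.04, adjusted p = 0.141). Between 26 and 71 counts stood behind each FOSB value.

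**Figure D2:**
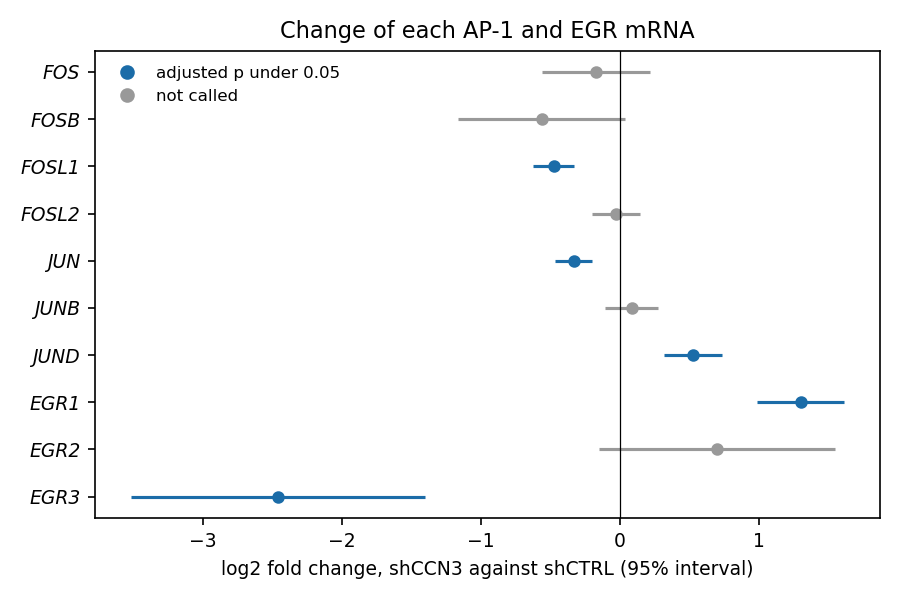
Log2 fold change of each gene, shCCN3 against shCTRL, with its 95% interval from edgeR; blue marks an adjusted p under 0.05. The intervals of FOSL1 (-0.62 to -0.33) and JUN (-0.46 to -0.20) are narrow, and those of EGR2 and EGR3, with 4 to 41 counts, are wide.

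The plot of changes with their intervals shows narrow intervals for the well-counted AP-1 genes and wide ones for EGR2 and EGR3. JUN, the most potent activator of its family and the usual partner of FOS proteins, was at 259, 259 and 263 CPM in shCTRL and at 218, 196 and 206 CPM in shCCN3. The shCTRL libraries lay within 5 CPM of each other and all above the shCCN3 libraries. The mean fell from 260.3 ± 2.25 to 207 ± 10.8 CPM (log2 -0.33, SE 0.06, adjusted p = 0.00209). JUN lies on chromosome 1 at 58780791 to 58784047, and its surroundings were lower as a whole: the median log2 change of the 24 nearest tested genes was -0.33, the same as JUN, with 9 called lower and 3 called higher, and 12 of the 24 fell further than JUN. Over the 1737 tested genes of chromosome 1 the median was -0.13. The part of this neighbourhood in the JUN result was not tested.

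JUND, a weaker activator known to be expressed steadily and to restrain growth in fibroblasts, rose. It was at 84.6, 90.9 and 103 CPM in shCTRL and at 132, 147 and 122 CPM in shCCN3. The lowest shCCN3 library lay above the highest shCTRL library, although both groups spread more than those of JUN. The mean went from 92.8 ± 9.35 to 134 ± 12.8 CPM (log2 0.52, SE 0.09, adjusted p = 0.00208). JUND lies on chromosome 19 at 18279694 to 18281622, and the median log2 change of its 24 nearest tested genes was -0.13, with 23 of them below JUND.

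JUNB, which can oppose JUN at target promoters, was at 68.7, 75.5 and 82.1 CPM in shCTRL and at 81.8, 85.5 and 72.6 CPM in shCCN3. The groups overlapped, and the log2 fold change of 0.08 had a 95% interval from -0.11 to 0.28 (adjusted p = 0.498). JUNB and JUND ranked the libraries in the same order within each group, and both are rich in G and C, with 64.9% in JUNB and 69.7% in JUND against a median of 48.4% over the tested genes with a known transcript. When GC content was taken out as an offset in the fit, an alternative chosen after seeing the data, JUND changed by 0.65 on the log2 scale (adjusted p = 1.59e-05), and JUNB reached 0.19 and passed the test (adjusted p = 0.0246). The call on JUNB therefore depends on that choice. The HOOK2 gene overlaps JUNB and had 1346 to 1857 counts, and changed by -0.14 on the log2 scale without passing (adjusted p = 0.259), and reads of the overlap could be assigned to either if counting did not use the strand.

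Per kilobase of exon, the JUN family changed in make-up more than in amount. In shCTRL, JUN gave 42.5 to 46.8% of JUN family mRNA, JUND 29.1 to 31.6% and JUNB 24.2 to 25.8%. In shCCN3, JUND came first with 40.0 to 43.5%, and JUN followed with 30.6 to 35.6%, while JUNB kept 24.4 to 25.9%. The ranges of JUN and JUND did not overlap between the groups, and within each group the order of the 2 genes was the same in all 3 libraries. The order in shCCN3 depends on the lengths used. In CPM, not divided by length, JUN stayed above JUND there, at 218, 196 and 206 against 132, 147 and 122. The summed JUN family level was 156 to 175 CPM per kb in shCTRL and 163 to 181 CPM per kb in shCCN3, with overlapping groups.

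**Figure D3:**
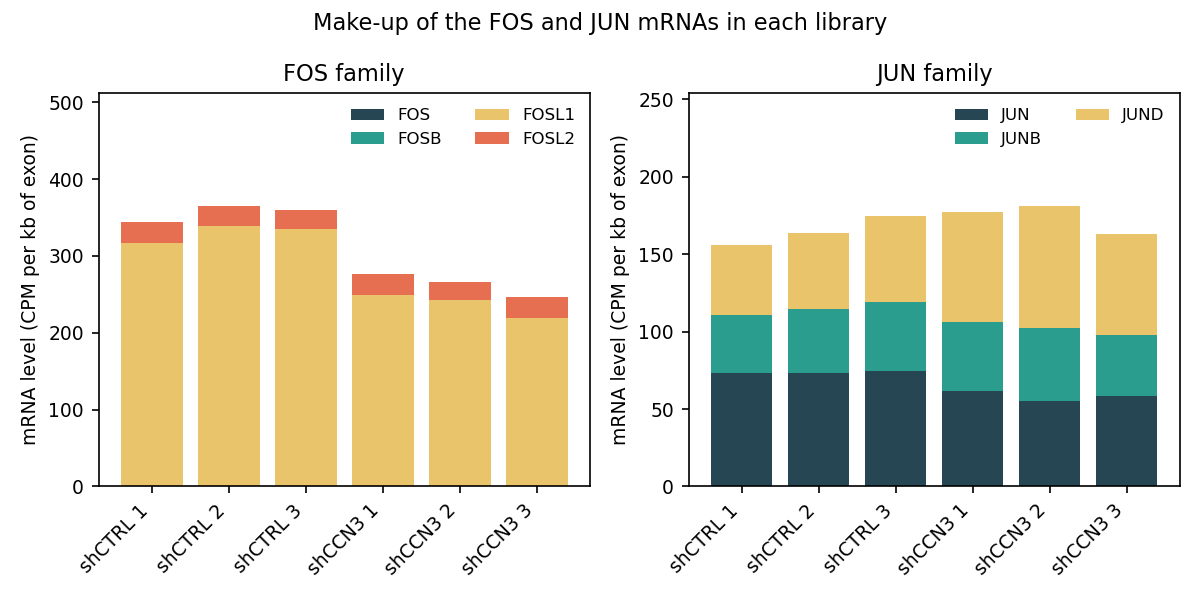
Stacked levels per library in CPM per kb of exon, FOS family on the left and JUN family on the right. FOSL1 makes up 88.9 to 93.0% of FOS family mRNA in every library, while JUND replaces JUN as the largest share of JUN family mRNA per kb in the 3 shCCN3 libraries. In CPM not divided by length, JUN stays above JUND.

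The stacked plot of the families shows the opposite arrangement for the FOS genes, whose amount fell while their order stayed. FOSL1 gave 91.8 to 93.0% of FOS family mRNA in shCTRL and 88.9 to 91.0% in shCCN3, and FOSL2 gave 6.85 to 8.03% and 8.80 to 10.9%. FOS and FOSB together stayed under 1% in every library. The summed FOS family level was 344 to 365 CPM per kb in shCTRL and 247 to 277 CPM per kb in shCCN3, with no overlap. These shares use exon lengths of GENCODE 29. For the FOS and EGR genes, the length of the longest transcript gave the same order. For JUN, JUNB and JUND the 2 lengths were identical (3540, 1820 and 1863 bases), so the order of the JUN family was not checked this way. The shares describe mRNA, and the activity of these factors is also set by phosphorylation and protein stability, which were not measured.

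Other basic leucine zipper proteins can take the place of a FOS or JUN protein in the dimer. Of 13 tested, 5 rose and 4 fell, with a median log2 fold change of 0.08. Over all genes tested, 16.2% were called higher and 17.3% lower. ATF3, a stress-induced partner of JUN proteins, went from 3.60 ± 0.620 to 9.0 ± 0.543 CPM (log2 1.32, adjusted p = 8.32e-05). BATF2, an inhibitor of AP-1 in several tumours, went from 1.07 ± 0.132 to 2.94 ± 0.325 CPM (log2 1.45). JDP2, a repressor that dimerises with JUN, rose with a log2 fold change of 0.71. Among those that fell were MAFK (-0.46) and BATF3 (-0.61), the latter losing its call without shCTRL replicate 1 or 3 or without shCCN3 replicate 1 or 3, and below 1 CPM, named after its values were seen, MAF, with 37, 28 and 30 counts in shCTRL and 0, 5 and 2 in shCCN3. MAF passed the filter on low counts through shCTRL alone. Where at least 10 counts were required in every library, 5 of the list rose and 3 fell. The list thus changed in both directions. Among the relatives and co-repressors of EGR proteins, NAB1, which binds EGR1 and represses it, rose from 13.9 ± 0.783 to 18.5 ± 1.86 CPM (log2 0.41, adjusted p = 0.00788). NAB2, the related co-repressor, was at 18.0 ± 1.20 and 15.5 ± 0.739 CPM and did not pass (log2 -0.22, adjusted p = 0.0687). WT1, a zinc finger protein that shares the EGR site, was called in neither direction. Thus 1 of 3 tested genes of that list was called, beside 33.4% of all genes, and 2 without shCCN3 replicate 2.

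Of 15 transcription factors that act on AP-1 and EGR promoters, 5 rose and 2 fell (median log2 fold change 0.14). Among all genes tested, 16.2% were called higher and 17.3% lower. SRF, known to bind CArG boxes, was at 38.2, 40.5 and 35.4 CPM in shCTRL and at 75.4, 74.8 and 70.0 CPM in shCCN3. The groups lay nearly 30 CPM apart at their closest, a rise of 1.93-fold (log2 0.95, SE 0.07, adjusted p = 1.14e-05). MRTFA, the actin-regulated coactivator of SRF, rose from 46.6 ± 0.731 to 80.8 ± 2.93 CPM (log2 0.79, adjusted p = 1.12e-05). The ternary complex factors, which bind beside SRF and are phosphorylated by ERK, did not rise with them: ELK3 fell (log2 -0.50, adjusted p = 0.000931), and the log2 fold changes of ELK1 and ELK4 were -0.02 and 0.21, without passing the test. ETS1, which binds AP-1 composite sites, rose (0.88), and ETS2 fell (-0.29).

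**Figure D4:**
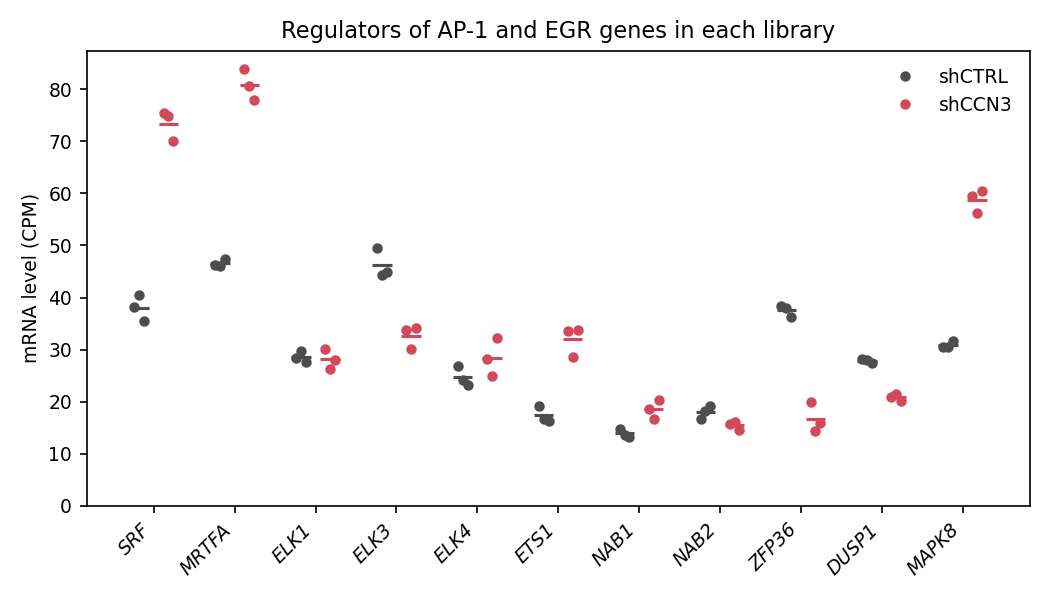
Level in CPM of regulators of the AP-1 and EGR genes in the 3 shCTRL and 3 shCCN3 libraries, with bars for group means. SRF, MRTFA, ETS1 and MAPK8 lie higher in shCCN3 and ZFP36 and ELK3 lower with no overlap, while ELK1 and ELK4 overlap.

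Of 15 genes for ERK, JNK and p38 pathway kinases, 2 rose and 1 fell (median log2 fold change 0.13). The share called in this list is below the 33.4% called over all genes tested. MAPK8, the JNK1 kinase that phosphorylates JUN, is seen in the plot of regulators to separate fully, from 30.8 ± 0.693 to 58.7 ± 2.24 CPM (log2 0.93, adjusted p = 6.26e-06). The p38 kinase MAPK14 rose (0.41), and RPS6KA1, a kinase downstream of ERK, was lower (-0.26), a call lost in 4 of the 6 fits that left out 1 library (shCTRL replicate 2 or 3, shCCN3 replicate 1 or 3). Without shCCN3 replicate 2, 7 kinases and 11 upstream transcription factors were called, 6 and 9 of them higher. The counts for these lists thus depend on that library, which had the fewest counts and differed most from the others of its group.

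Many AP-1 and EGR mRNAs carry AU-rich elements and are short-lived. Of 9 genes for mRNA decay and for turnover of JUN proteins, 1 rose and 2 fell, a share close to the 33.4% called over all genes tested. ZFP36 (tristetraprolin), which binds AU-rich elements and promotes decay, was at 38.4, 38 and 36.2 CPM in shCTRL and at 19.9, 14.4 and 15.9 CPM in shCCN3. Every shCCN3 library was far below the controls (log2 -1.16, SE 0.11, adjusted p = 5.80e-05). ZFP36L1, of the same family, rose (0.44), and FBXW7, a ubiquitin ligase subunit that targets JUN, fell (-0.40), a call lost without shCTRL replicate 2.

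Of 32 other immediate early genes, 15 rose and 4 fell (median log2 fold change 0.22). Taken over all genes tested, 16.2% were called higher and 17.3% lower. CCN1, a matricellular relative of CCN3, rose from 184 ± 5.56 to 614 ± 15.1 CPM (log2 1.74, adjusted p = 9.44e-08). RHOB, a small GTPase, and PLK2, a polo-like kinase, rose with log2 fold changes of 1.19 and 1.00. ARC (-0.79), PLK3 (-0.46) and DUSP1 (-0.42) fell, DUSP1 being a phosphatase that switches off JNK, p38 and ERK. The list therefore held calls in both directions, with more genes higher than lower. Of the 10 genes themselves, 2 rose and 3 fell.

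Known transcriptional outputs were read in the same way. Of 17 tested AP-1 target genes, 6 rose and 6 fell (median log2 fold change -0.05). All genes tested had 16.2% called higher and 17.3% lower. The cytokine gene IL6 (1.49) and the gap junction gene GJA1 (0.90) were among those that rose, while the urokinase gene PLAU (-1.22), the chemokine gene CCL2 (-1.03) and HMOX1 (-0.54) fell. PLAU alone went from 1166 ± 20.1 to 501 ± 19.2 CPM (adjusted p = 6.70e-07). The far point in the plot of pathway genes is the collagenase gene MMP13, named here after its values were seen, which had 0 counts in each shCTRL library and 20, 24 and 29 counts in shCCN3. Against 3 counts per shCTRL library this is at least 8.64-fold higher, and with MMP13 at that bound the list's median was also -0.05. MMP13 is among the 6 that rose and passed the filter on low counts through shCCN3 alone. Where at least 10 counts were required in every library, 5 AP-1 target genes rose and 6 fell. Of 8 tested EGR target genes, 5 rose and 1 fell (median 0.51), beside 16.2% higher and 17.3% lower of all genes. The adhesion molecule ICAM1 (1.84), the growth factor FGF2 (0.82) and the matrix gene THBS1 (0.79) rose, and PDGFA, a textbook EGR1 target, fell from 148 ± 1.79 to 76.1 ± 4.06 CPM (log2 -0.96, adjusted p = 4.37e-06).

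**Figure D5:**
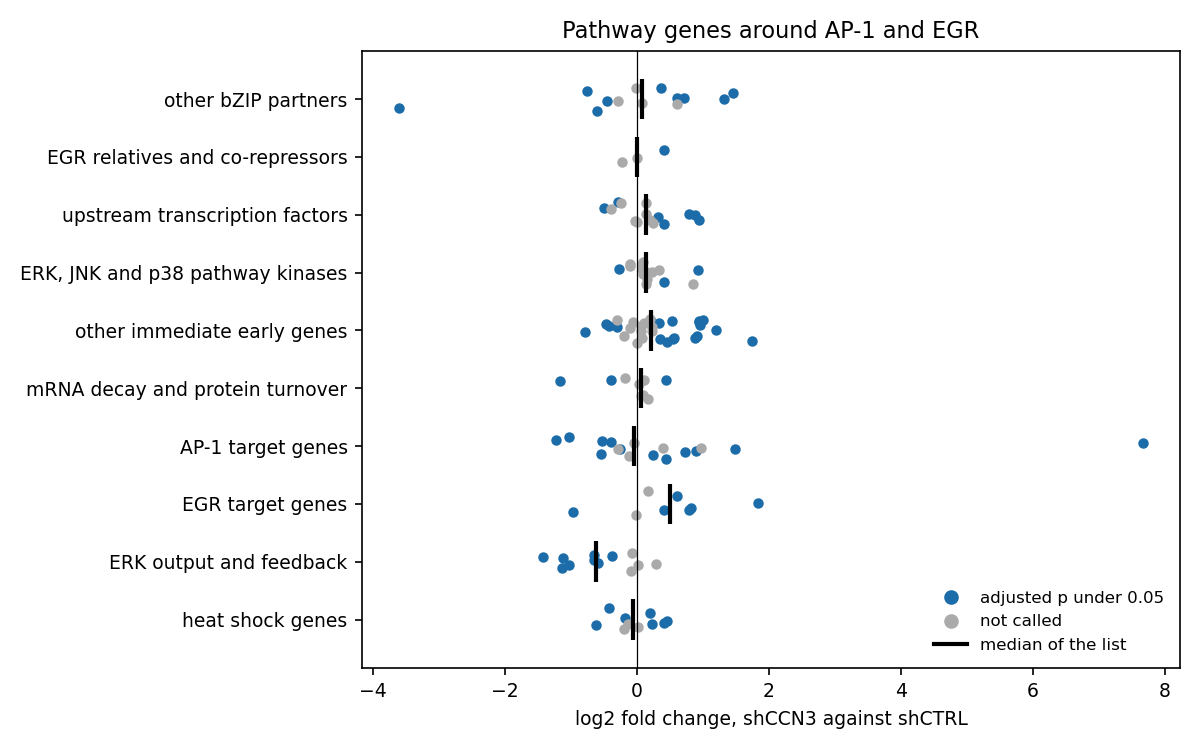
Log2 fold change, shCCN3 against shCTRL, of the tested genes of 10 lists around AP-1 and EGR, with blue for an adjusted p under 0.05 and a bar at each list's median. ERK output genes lie lowest (median -0.62) and EGR targets highest (median 0.51), and the point at 7.66 is MMP13, at 0 counts in shCTRL.

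Among genes that follow ERK activity, 8 of 12 tested fell (median -0.62) and 0 rose in edgeR, DESeq2 or limma-voom. In edgeR, 0 were higher at an unadjusted p under 0.05. The shares called in edgeR over all genes tested were 17.3% lower and 16.2% higher. Without shCCN3 replicate 2, 1 of the 12 was called higher. DUSP6 (-1.42) and DUSP4 (-1.13), phosphatases that inactivate ERK, and SPRY2 (-1.12), an inhibitor of receptor tyrosine kinase signals, fell by the largest amounts. FOSL1, itself known as an ERK-responsive gene, fell with them, and EGR1, known as another, rose. Heat shock genes, read as a sign of general stress, moved both ways, with 4 of 10 higher and 3 lower. Beside these counts stand the same 16.2% higher and 17.3% lower of all genes. HSPA1A (0.46), HSPA1B (0.42) and HSP90AA1 (0.23) rose, and HSPB1 (-0.61), BAG3 (-0.41) and DNAJB1 (-0.17) fell. The DNAJB1 call was lost in 5 of the 6 fits that left out 1 library (kept without shCCN3 replicate 2), with the replicate block and with the GC offset. Without shCTRL replicate 3, where HSP90AA1 also lost its call, 4 were called, 2 in each direction. HSPA1A and HSPA1B are near-identical copies whose separate counts are uncertain. The part of a stress response in the EGR1 and ATF3 values was not tested.

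Among 13632 genes with a mean of at least 1 CPM, the 3 whose centred log2 CPM lay nearest to EGR1 over the 6 libraries were BBC3 (distance 0.14), GPRC5B (0.14) and RHOB (0.15). BBC3, a pro-apoptotic BCL2 family gene, rose by 1.30 on the log2 scale, GPRC5B, an orphan receptor gene, by 1.29 and RHOB by 1.19. With 6 libraries in 2 groups, this likeness is mainly the size of the rise.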

How the data were processed

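Poly(A) RNA of Hs578T cells with control shRNA or CCN3 shRNA #2 was sequenced from stranded libraries, which the series' design text gives as 3 independent biological replicates per group. The authors deposited raw read counts for 46427 genes with no normalization, and the submitters' processing notes name bcl2fastq 2.20.0, Trimmomatic, HISAT2 2.1.0, StringTie 2.1.3d, DESeq2 and GRCh38. The annotation, and whether counting used the strand, are not given in the sources used here. Libraries were grouped by the sample labels.

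From the deposited counts, edgeR 4.0.16 in R 4.3.3 was run with TMM scaling, its filter on low counts by group and the quasi-likelihood test without a block, over 17419 genes, with Benjamini-Hochberg adjustment over all of them. An adjusted p under 0.05 was called. Alternatives used other scalings and filters, DESeq2 1.42.0, limma-voom (limma 3.58.1), a replicate block, each library left out and, added after seeing the data, an offset for transcript GC content, known for 85.7% of tested genes. The 3 count tests were tested on simulated data: DESeq2 missed a first bar set on all changed genes, mostly ones with few counts, and the bar was then reset to well-counted genes, which all 3 tests recovered. Members and lists were chosen with earlier results of these data known. Named are the 10 members, CCN3, up to 3 called genes per direction and list with the largest change and a mean of at least 1 CPM, SRF, ELK1, ELK3, ELK4, NAB1, NAB2, ZFP36, DUSP1, and the 3 genes nearest to EGR1. Some genes that this rule or the lists hold are not reported here. Exon lengths came from GENCODE 29, and positions and promoters from RefSeq GRCh38.p14. Neighbours are the 24 tested genes nearest on the chromosome. Intervals of fold changes are 95%, and floors of 3 counts cover counting error only.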

Additional observations from a re-analysis of the deposited data

How the results depend on the processing

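Over 14 alternatives, 4 to 6 members were called: 4 where at least 10 counts were required in every library, which left out EGR3, and 6 with the GC offset, which added JUNB at a log2 fold change of 0.19. EGR1 (1.23 to 1.37), JUND (0.45 to 0.65), FOSL1 (-0.51 to -0.39), JUN (-0.37 to -0.27) and EGR3 (-2.87 to -2.20, 13 alternatives) kept their direction and passed the test in each fit that held them. FOSL2 lay between -0.075 and 0.041 when 1 library was left out, with a positive value of 0.0046 without shCTRL replicate 1 and 0.041 without shCCN3 replicate 2, and was 0.022 with the GC offset, and did not pass in any. Leaving out 1 library gave 4181 to 7229 called genes over the whole table, 5 to 11 upstream transcription factors, 2 to 7 kinases, 1 to 2 relatives and co-repressors of EGR proteins and 4 to 8 heat shock genes. The highest counts of the table and of the first 3 lists came without shCCN3 replicate 2, and the 4 heat shock genes without shCTRL replicate 3. The cause was not tested. The other list counts stayed within 1.5 times.

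Same-numbered libraries of the 2 groups deviated from their group means with correlations of 0.09, -0.03 and -0.07. These values show no sign that the numbers pair the samples, but with 3 libraries per group they cannot exclude it. A fit with a replicate block called 4887 genes and 5 members. Of 43 called list genes open to naming, 38 kept their call in all 14 alternatives. The scalings moved the median of all genes by under 0.1. Depth limits EGR2, EGR3, FOSB and FOS, with under 100 counts per library.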

Other observations

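ATF7, which encodes a basic leucine zipper partner of JUN proteins, stood out after its values were seen. It had 2022, 1893 and 1745 counts in shCTRL and 2366, 154 and 2117 counts in shCCN3. The shCCN3 replicate 2 library was thus far below the other 5, which lay close together. The read-through gene ATF7-NPFF had 64, 88 and 127 counts in shCTRL and 76, 220 and 103 counts in shCCN3, and was highest in that same library. How reads were divided between the 2 overlapping genes was not tested.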
